A study of Mus musculus with 4 samples.

Results

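The caveolins and the cavins are the coat proteins of caveolae, and their genes are described here in cultures differentiated towards cardiac cells from WT and Taf4a-/- mouse embryonic stem cells (ESCs). The genes were chosen by name, for their function, as the 3 caveolin genes Cav1, Cav2 and Cav3 and the cavin genes Ptrf, Sdpr and Prkcdbp, which encode cavins 1, 2 and 3. They make up 6 of the 24637 genes in the table. The choice was made with earlier results of these data known, so their differences between genotypes are given as a description and without a test.

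Messenger RNA was sequenced in 4 libraries, from 2 independent WT and 2 independent Taf4a-/- ESC lines of C57BL/6J background, with 1 library per line. The lines had been derived from blastocysts of crosses between mice heterozygous for a Taf4a allele that lacks an internal part of the gene, so every cell of a Taf4a-/- line carries the loss. All lines were kept on inactivated embryonic fibroblast feeders with LIF, then grown for 5 days as embryoid bodies in medium with fetal calf serum and for 9 days on gelatin-coated plates, and WT and Taf4a-/- cultures were treated alike. The labels call the cells cardiac, and replicate numbers are used as names of lines.

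Caveolae are small flask-shaped pits of the plasma membrane, rich in cholesterol and abundant in adipocytes, endothelial cells, smooth and striated muscle and fibroblasts. Caveolins insert into the inner leaflet as a hairpin and form oligomers. Cavins are soluble proteins that assemble on the caveolin-rich membrane and shape it, and the pits flatten under tension and act as a membrane reserve and as a site for receptors and enzymes.

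The libraries held 21732746 to 27733034 reads counted on genes, and the values below are those reads divided by a size factor per library (normalized counts). Taf4a, the targeted gene, was at 889 and 678 normalized counts in the WT lines 1 and 2 and at 1722 and 1799 in those labelled Taf4a-/-, so its gene-level count does not check the labels, and genotypes are named as labelled. Xist, which coats the inactive X, was at 6470.0 in Taf4a-/- replicate 2 and between 6.14 and 217 elsewhere, and the Y-linked gene Eif2s3y was at 1688 in WT replicate 1, 309 in Taf4a-/- replicate 1 and 0 otherwise. The libraries of each genotype thus differed in these sex-linked RNAs. All values come from whole cultures, where fewer cells of a type and less RNA per cell cannot be told apart. Cardiomyocyte genes were present in WT and low in the libraries labelled Taf4a-/-, as given with the marker lists.

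Cav1 and Cav2 are neighbours on chromosome 6 of NCBIM37 (mm9), both on the plus strand. Cav2 spans chr6:17231185-17239115 and Cav1 spans chr6:17256335-17291452, with 17220 bp between them. Cav3 lies elsewhere on the same chromosome, at chr6:112409495-112422865 on the plus strand. Ptrf (chr11:100818047-100832201, minus strand), Sdpr (chr1:51345970-51359803, plus strand) and Prkcdbp (chr7:112629121-112630711, minus strand) lie on 3 other chromosomes. The coding sequences of Cav1, Cav2 and Cav3 are 537, 489 and 456 nt long. A stretch of 60 coding bases is shown for the 3 caveolins. It was chosen as the stretch of Cav1 with the most matches to Cav3. Cav2 is shown at its best match to the same bases of Cav1. Capitals mark bases that differ from Cav1, and the stretch starts at coding base 376 of Cav1, 295 of Cav3 and 331 of Cav2.
Cav1: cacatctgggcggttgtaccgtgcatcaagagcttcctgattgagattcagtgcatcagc
Cav3: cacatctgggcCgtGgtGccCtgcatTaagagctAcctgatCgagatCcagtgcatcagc
Cav2: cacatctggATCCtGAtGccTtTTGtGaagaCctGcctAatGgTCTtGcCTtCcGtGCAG
Cav3 matched Cav1 at 52 of the 60 bases (86.7%) and Cav2 matched it at 32 (53.3%). Because the stretch was picked for Cav3, these shares do not compare the likeness of the whole genes. The longest identical run shared by the transcripts of any pair of the 6 genes was 15 nt, between Cav1 and Cav3. Of all 36-base words in their protein-coding transcripts, none was shared with another protein-coding gene, except for 7 of 5227 in Ptrf. Those 7 were shared with Dll3. Non-coding genes and pseudogenes were not searched. The caveolin genes can therefore be counted apart from each other despite their likeness. An antisense gene, Gm15581, overlaps the spans of Cav1 and Cav2 and shares no exonic base with either.

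All 6 genes had lower values in both libraries labelled Taf4a-/- than in both WT libraries. Of the 16926 genes whose mean reached 10 normalized counts, 36.6% were separated in this direction and 34.5% in the other. With the mean of Cav3 below 10, 5 of the 6 genes were fitted. Differences are given on the scale of log2(normalized count + 1), as Taf4a-/- minus WT, which understates the change of genes with few counts. The 5 fitted differences ran from -2.35 for Sdpr to -0.98 for Prkcdbp, with a median of -1.66, beside a median of -0.01 over all genes fitted. Cav1, Cav2, Ptrf and Sdpr were at -1 or below, as were 13.9% of all genes fitted, where 6.79% were at 1 or above. Prkcdbp lay just short of that value.

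**Figure D1:**
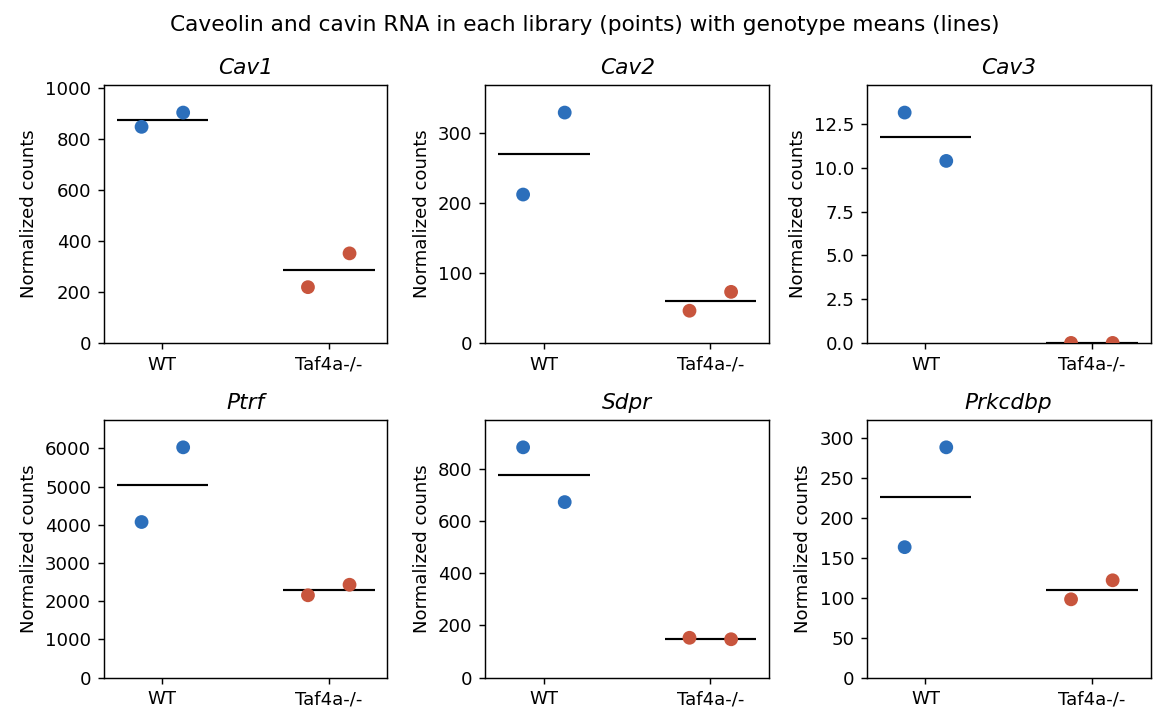
Normalized counts (vertical axes, each from 0) of the 6 genes in the WT and Taf4a-/- libraries, with 1 point per library and a line at each genotype mean. In each panel both Taf4a-/- points lie below both WT points, with the narrowest gap for Prkcdbp and, for Cav3, values of 0 in both Taf4a-/- libraries.

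Cav1 encodes the main caveolin outside striated muscle, needed for caveolae in those cells. Its normalized counts were 846 and 902 in WT lines 1 and 2, against 218 and 351 in Taf4a-/- lines 1 and 2. The WT lines were close to each other, the Taf4a-/- lines were 1.61-fold apart, and the genotypes did not overlap, with 2.41-fold between the lowest WT and the highest Taf4a-/- library. The means were 874 ± 39.5 and 284 ± 93.5 (SD, n = 2 each), so Cav1 was 3.07-fold lower in Taf4a-/-, a log2 difference of -1.66 (SE 0.24).

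Cav2 encodes a caveolin that forms hetero-oligomers with caveolin 1 and depends on it to leave the Golgi. The WT lines had 212 and 329 normalized counts of it and the Taf4a-/- lines 46.0 and 73.0. Replicate 2 was higher than replicate 1 by a like factor in both genotypes (1.55-fold and 1.59-fold), and the genotypes did not overlap. The means were 271 ± 82.9 and 59.5 ± 19.1 (SD, n = 2 each), and the log2 difference was -2.17 (SE 0.35). Its difference was larger than that of Cav1, and the ratio of Cav2 to Cav1 counts per kb was 0.258 and 0.376 in WT and 0.217 and 0.214 in Taf4a-/-. The ratio in WT replicate 1 lay closer to the Taf4a-/- ratios than to that of WT replicate 2.

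Cav3 encodes the muscle caveolin of cardiomyocytes and skeletal fibres. WT lines 1 and 2 had 13.2 and 10.4 normalized counts of it, from 15 reads (95% Poisson interval 8.395 to 24.7) and 10 reads (4.795 to 18.4), intervals that cover counting error only. No read was counted in either library labelled Taf4a-/-, which allows up to 3 reads in each, of 24251499 and 21732746 reads in replicates 1 and 2. A floor of 3 reads in each of these libraries is a mean of 3.13 normalized counts. With the WT mean of 11.8 ± 1.95 (SD, n = 2) taken as measured, Cav3 was at least 3.76-fold lower, a log2 bound of -1.91. That bound leaves out the counting error of the WT reads, so the fold could be smaller. With Cav3 at this bound, a log2 ratio without the added 1, the median over the 6 genes was -1.78. At these counts only the absence of reads in Taf4a-/- against a low level in WT can be stated, and absence of the RNA cannot.

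Ptrf encodes cavin 1, which is required for caveolae in all tissues that have them. Normalized counts of 4072 and 6026 were found in the WT libraries and 2156 and 2431 in the Taf4a-/- libraries. Ptrf kept the highest level of the 6 genes in each library, and the WT lines differed by 1.48-fold, against 1.68-fold between the lowest WT and the highest Taf4a-/- library. The means were 5049 ± 1382 and 2293 ± 195 (SD, n = 2 each), and the log2 difference was -1.11 (SE 0.20).

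Sdpr encodes cavin 2, which drives membrane curvature and binds phosphatidylserine. Normalized counts were 882 and 672 in WT lines 1 and 2 and 153 and 147 in the Taf4a-/- libraries. Of the 5 fitted genes it had the widest separation, 4.40-fold between the lowest WT and the highest Taf4a-/- library. WT replicate 1 was the higher of the WT lines for Sdpr. Cav2, Ptrf and Prkcdbp were higher in replicate 2, and Cav1 by only 1.07-fold. The means were 777 ± 148 and 150 ± 3.97 (SD, n = 2 each), so it was 5.18-fold lower in Taf4a-/-, and the log2 difference was -2.35 (SE 0.20). A lower log2 difference was found for 4.69% of all genes fitted.

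Prkcdbp encodes cavin 3, which binds caveolin 1 and protein kinase C delta. The level was 163 and 288 normalized counts in WT and 97.9 and 122 in the Taf4a-/- libraries. WT replicate 1 lay only 1.34-fold above Taf4a-/- replicate 2, less than the 1.77-fold between the WT lines. The means were 225 ± 88.2 and 110 ± 16.8 (SD, n = 2 each), and the log2 difference was -0.98 (SE 0.33). Without WT replicate 2 it was -0.58 and without WT replicate 1 it was -1.39, so its size depended on the WT library used.

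**Figure D2:**
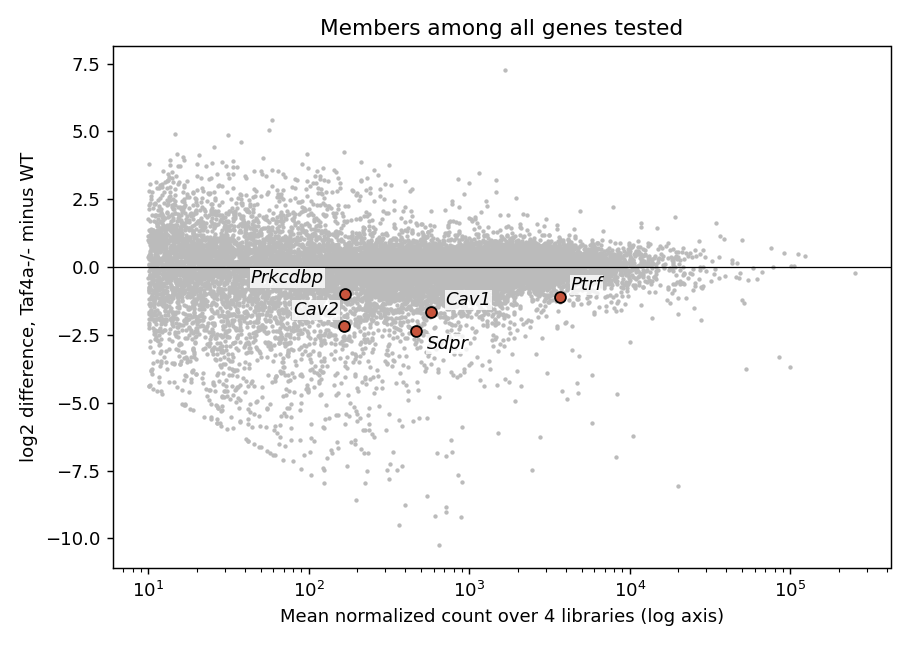
Log2 difference, Taf4a-/- minus WT (vertical axis), against the mean normalized count over the 4 libraries (horizontal log axis) for the 16926 genes fitted in grey and the 5 fitted caveolin and cavin genes in red. The 5 genes lie between -2.35 and -0.98 and span means from 165 for Cav2 upwards.

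Levels between the genes were compared per kb of exon. In WT, Ptrf was the highest with 780 and 1154 normalized counts per kb. Cav1 (246 and 263), Sdpr (289 and 220) and Prkcdbp (158 and 278) followed with overlapping ranges, so no order among them can be given. Cav2 (63.6 and 98.8) and Cav3 (11.3 and 8.96) were below all of these. In the Taf4a-/- libraries Ptrf had 413 and 465 per kb and was again the highest. Prkcdbp (94.6 and 118) and Cav1 (63.6 and 102) overlapped, and Sdpr, with a mean of 49.1, lay below both of them. Cav2 had 13.8 and 21.9 per kb and Cav3 had 0 in both.

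The sum over the 6 genes was 1547 and 2022 normalized counts per kb in WT and 635 and 755 in Taf4a-/-, or 38.9% of the WT mean. Ptrf made up 50.4% and 57.1% of this sum in the WT lines, against 65.0% and 61.6% in Taf4a-/-. The share of Sdpr was 18.7% and 10.9% in WT and 7.88% and 6.38% in Taf4a-/-, without overlap. The 3 caveolins together held 20.8% and 18.3% in WT and 12.2% and 16.4% in Taf4a-/-. The Taf4a-/- lines differed more from each other in this share than the nearer of them did from WT replicate 2. The share of Cav1 overlapped between genotypes, at 15.9% and 13.0% in WT and 10.0% and 13.5% in Taf4a-/-.

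**Figure D3:**
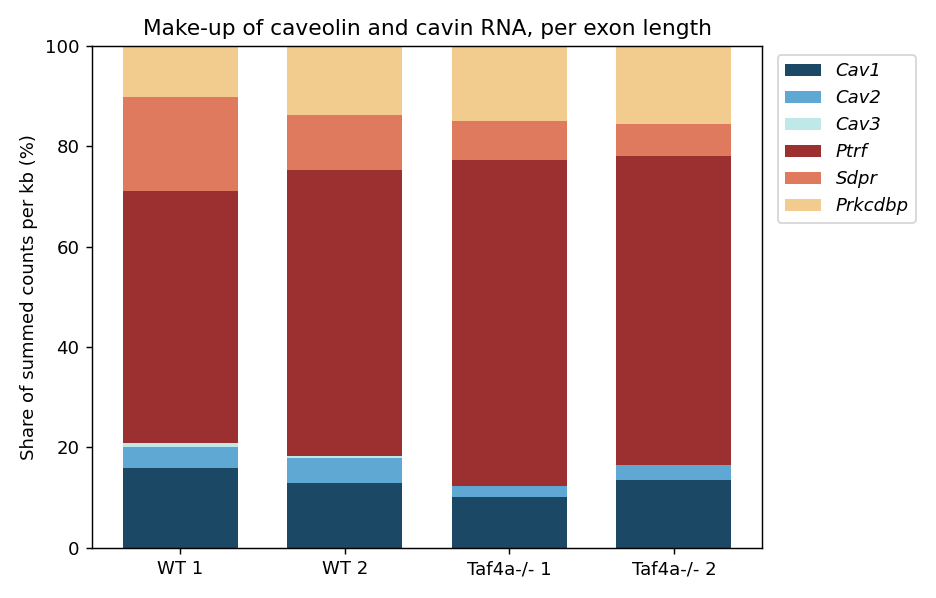
Share of the summed normalized counts per kb (vertical axis, percent) that each of the 6 genes holds in each of the 4 libraries, stacked to 100%. Ptrf is the largest block in every library, from 50.4% to 65.0%, and the Sdpr block is narrower in both Taf4a-/- libraries.

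The bases before the annotated start are shown for Cav1, Cav2 and Sdpr, the genes with the larger fitted differences. The RefSeq promoter table (GRCm38.p6) was matched to NCBIM37 exactly, and each sequence is the 250 bases upstream of a start on the plus strand. Capitals mark motifs described after the sequences that lie whole within the bases shown. These windows are chr6:17256085-17256334 for Cav1, chr6:17230935-17231184 for Cav2 and chr1:51345720-51345969 for Sdpr.
Cav1: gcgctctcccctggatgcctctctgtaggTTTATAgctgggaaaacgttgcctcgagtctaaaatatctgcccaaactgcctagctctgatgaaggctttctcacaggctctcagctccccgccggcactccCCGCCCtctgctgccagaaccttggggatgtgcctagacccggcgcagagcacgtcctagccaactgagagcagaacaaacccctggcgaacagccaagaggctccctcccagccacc
Cav2: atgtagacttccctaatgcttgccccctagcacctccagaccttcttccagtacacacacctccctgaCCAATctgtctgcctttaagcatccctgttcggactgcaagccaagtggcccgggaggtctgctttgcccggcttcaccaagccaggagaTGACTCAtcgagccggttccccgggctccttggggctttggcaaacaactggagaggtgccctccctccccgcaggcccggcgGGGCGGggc
Sdpr: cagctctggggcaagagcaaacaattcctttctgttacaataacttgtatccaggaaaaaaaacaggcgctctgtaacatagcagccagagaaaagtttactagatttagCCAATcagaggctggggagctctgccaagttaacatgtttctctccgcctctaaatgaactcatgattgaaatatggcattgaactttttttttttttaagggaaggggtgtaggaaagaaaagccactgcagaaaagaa
Motifs were searched on both strands in the window from 250 bases before to 50 after each start. The core promoter motifs were TATAAA, known as the TATA box, then GGGCGG, bound by Sp factors, and then CCAAT, bound by NF-Y. The motifs of regulated promoters were CATTCC, the MCAT element bound by TEAD factors, then TGACTCA, the AP-1 site, then CACGTG, one form of the E-box. After these came TCACNCCAC, the sterol element, followed by the CArG box and the MEF2 site. Other forms of the E-box (CANNTG) were not searched. A CArG box can hold CCAAT and a MEF2 site can hold TATAAA. Over 32534 promoters of this length, these occurred, in that order, in 13.6%, 35.9%, 37.4%, 14.6%, 5.19%, 7.17%, 1.24%, 1.64% and 3.16%. The Cav1 window shown held TATAAA at -221, on the minus strand, and GGGCGG at -118 and at -2, the latter running across the start. Another annotated start of Cav1, with chr6:17257390-17257639 upstream of it, had none of these motifs in its window, which was 62.3% G and C. Cav2 held CCAAT at -182, TGACTCA at -92 and overlapping GGGCGG matches at -9 and -4. Sdpr held a single match, CCAAT at -140, and its whole window was poorer in G and C, with 43.3% against 59.3% for Cav1 and 64.3% for Cav2, where the median promoter had 53%. CpG dinucleotides numbered 13, 16 and 4 in the windows of Cav1, Cav2 and Sdpr, beside a median of 7. No CACGTG, sterol element, CArG box or MEF2 site was matched in the windows of these genes or of Ptrf and Cav3. This says nothing about the factors or about other forms of the E-box. Prkcdbp has no sequence shown.

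The genes nearest to the caveolin loci were read in the same libraries, within 250 kb. Met, a receptor tyrosine kinase gene downstream of Cav1, had 736 and 915 normalized counts in WT and 460.1 and 303 in Taf4a-/-, and it fell with a log2 difference of -1.13 (SE 0.24, adjusted p = 0.0196 from limma). That call was lost without WT replicate 2 (adjusted p = 0.112) or Taf4a-/- replicate 2 (0.0575). Tes, a focal adhesion gene on the other side of Cav2, had a difference of -0.20 (SE 0.19, adjusted p = 0.473 from limma). Near Cav3, Lmcd1, a LIM-domain cofactor gene, fell by 1.97 on the log2 scale (adjusted p = 0.00677) and Srgap3, a gene for a GTPase-activating protein, by 1.41 (adjusted p = 0.00412), both from limma. Rad18, a DNA repair gene between Cav3 and Srgap3, had -0.37 (adjusted p = 0.0882). Oxtr, the oxytocin receptor gene 813 bp from Cav3, was at 8.77 and 11.4 normalized counts in WT and 14.7 and 2.21 in Taf4a-/-, with overlapping genotypes and too few counts for the test.

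Proteins that assemble at the neck of caveolae or with the coat were taken as a list of 12 genes, all tested with limma. In the libraries labelled Taf4a-/-, 6 of the 12 fell and 0 rose, where 17.3% of all tested genes fell and 11.3% rose (28.6% in either direction). At an unadjusted p under 0.05 the counts were the same, 6 and 0, and limma's voom on recovered reads gave 6 and 0. The median log2 difference was -0.34, against -0.01 over all genes. Leaving out Taf4a-/- replicate 2 left 3 genes called, and both WT replicate 2 and Taf4a-/- replicate 1 left 4.

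Ehd2, the ATPase that rings the caveolar neck, had 1756 and 2689 normalized counts in WT and 587 and 793 in Taf4a-/-. Its log2 difference of -1.67 (SE 0.24, adjusted p = 0.00676 from limma) was close to the -1.66 of Cav1. The other EHD genes were unequal. Ehd4 fell by 1.17 (SE 0.20, adjusted p = 0.0101) and Ehd3 fell by 0.91 (SE 0.17, adjusted p = 0.0139), while Ehd1 had 0.04 (SE 0.11, adjusted p = 0.807). Bves, encoding a popeye-domain protein that binds caveolin 3, had 504 and 695 normalized counts in WT and 260.4 and 257 in Taf4a-/-, and fell by 1.19 (SE 0.20, adjusted p = 0.0108). Pacsin2, the membrane-bending F-BAR protein of caveolae, fell by 0.72 (SE 0.13, adjusted p = 0.0121) and its muscle relative Pacsin3 by 0.73 (SE 0.17, adjusted p = 0.0244). The calls of Ehd3, Pacsin2 and Pacsin3 were lost without Taf4a-/- replicate 2 (log2 differences -0.86, -0.72 and -0.63). Ehd3 also lost its call without WT replicate 2 (-0.76), and Pacsin2 without Taf4a-/- replicate 1 (-0.72). Pacsin3 lost its call without WT replicate 2 (-0.71) or Taf4a-/- replicate 1 (-0.83) as well. The calls of Ehd2, Ehd4 and Bves held with any 1 library left out.

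Murc encodes cavin 4, the muscle cavin. It had 56.1 and 44.7 normalized counts in WT and 72.4 and 101 in Taf4a-/-, higher in both of the latter, unlike the other cavins. Its log2 difference of 0.76 (SE 0.32) was not called (limma, adjusted p = 0.128), except in a fit with quantile normalization, where it was 1.11 (adjusted p = 0.0452). Dnm2, which cuts vesicles from the membrane, had 0.24 (SE 0.11, adjusted p = 0.165). The actin cross-linker gene Flna, to whose product caveolae are tied, had 0.14 (SE 0.16), and neuronal Pacsin1 had 0.30 (SE 0.28), neither of them called.

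**Figure D4:**
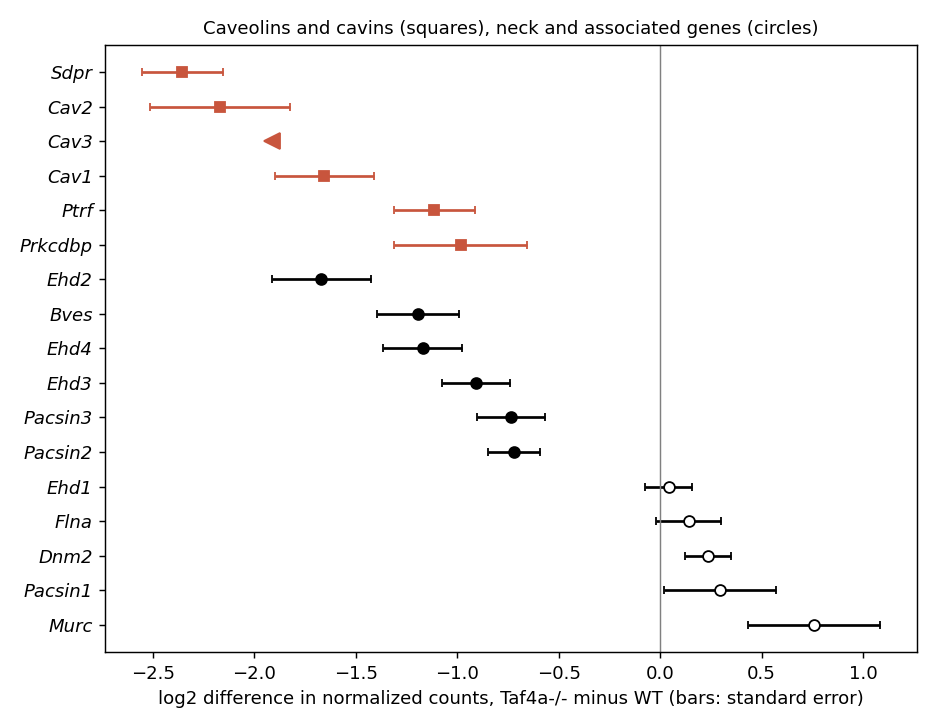
Log2 difference, Taf4a-/- minus WT, with its standard error (horizontal axis) for the 6 caveolin and cavin genes (red squares, with an arrow at the bound of Cav3) and for 11 of the 12 neck and associated genes (black circles, filled where called at an adjusted p-value under 0.05). The red symbols all lie left of 0, and among the circles Ehd2, Bves, Ehd4, Ehd3, Pacsin3 and Pacsin2 are filled.

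Other membrane domains and coats were read for comparison. Of 7 tested flotillin and stomatin scaffold genes, 2 fell and 1 rose, with a median of -0.14, where 17.3% of all tested genes fell and 11.3% rose. Stom, a hairpin protein of lipid rafts, fell by 1.74 (adjusted p = 0.00486 from limma), Stoml1 rose by 0.84 (adjusted p = 0.0116) and lost its call without Taf4a-/- replicate 1 (0.0828), and Erlin2, of the endoplasmic reticulum, had -0.14 (adjusted p = 0.439). The other call was Erlin1 (adjusted p = 0.0457), and a single gene of the list fell without WT replicate 2 or either Taf4a-/- library. The clathrin coat and AP-2 list held 11 genes with a median of -0.14. There Cltb and Ap2s1, a light chain and an adaptor subunit, had -0.87 and -0.42 and were called (adjusted p = 0.0281 and 0.0448), and both lost their calls without WT replicate 2 (0.103 and 0.0797) or Taf4a-/- replicate 2 (0.121 and 0.238). The heavy chain Cltc, with the highest level of that list, had 25247 and 32073 normalized counts in WT and 32905 and 24438 in Taf4a-/-, overlapping between genotypes.

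Receptors and enzymes known to reside in caveolae numbered 20, of which 12 fell and 1 rose, with a median of -0.81, beside 17.3% and 11.3% of all tested genes. Without Taf4a-/- replicate 1, 7 of them fell. Cd36, a fatty acid transporter, had 583 and 659 normalized counts in WT and 62.7 and 49.8 in Taf4a-/-, the largest difference of the list (-3.45, SE 0.23, adjusted p = 0.00102 from limma). Ednrb, an endothelin receptor gene, fell by 2.14 (SE 0.18, adjusted p = 0.00164). Tgfbr1, a receptor for TGF-beta, had 5678 and 5033 in WT and 6706 and 7755 in Taf4a-/-, at 0.43 (SE 0.13, adjusted p = 0.0571), and it was called with equal library totals (0.49, adjusted p = 0.0473). The gene that rose was Nos1, neuronal nitric oxide synthase, at 1.59 (adjusted p = 0.011), and its call was lost without WT replicate 2. Among genes for partners of caveolin 3 at the muscle membrane, 4 of 11 tested fell, again beside 17.3% of all genes, with a median of -0.56. Sgca and Sgcd, sarcoglycan genes with at most 28.1 normalized counts in any library, had log2 differences of -2.46 and -1.89 and were called (adjusted p = 0.0275 and 0.0409 from limma). Both calls were lost without WT replicate 2 (0.0825 and 0.117) or either Taf4a-/- library, and the count of the list was then 1. Dag1, encoding dystroglycan, had -0.41 (adjusted p = 0.0571) and was called without WT replicate 1 (adjusted p = 0.031).

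Cholesterol is a structural part of caveolae, and 6 of 18 tested genes of its synthesis fell, with a median of -0.41, where 17.3% of all tested genes fell. Hsd17b7 and Sc4mol, which act late in the pathway, had -1.33 and -0.98 and were called (adjusted p = 0.00872 and 0.00639 from limma). The count was 2 without WT replicate 2 or either Taf4a-/- library. Of 12 genes for the SRF and YAP regulators of tension-responsive transcription, 2 fell and 1 rose, near the 17.3% and 11.3% of all tested genes. Myocd, an SRF coactivator of smooth and cardiac muscle, fell by 1.74 (adjusted p = 0.00381), Klf2, a flow-responsive factor that is also expressed in ESCs, rose by 2.32 (adjusted p = 0.000809), and Yap1 had -0.04 (adjusted p = 0.823).

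Cells rich in caveolae were followed by lists of marker genes, summed per library. Calls in all the marker lists stand beside the 17.3% of all tested genes that fell and the 11.3% that rose. The 14 tested of 15 cardiomyocyte markers all fell (Tnnc1, at 0.877 or less in each library, was not tested), with a median of -3.24, and their sum was 34951 and 34203 normalized counts in WT and 3571 and 3382 in Taf4a-/-, 10.1% of the WT mean. Actc1, the cardiac actin gene, fell by 4.58. The fibroblast and mesenchyme sum was 543407 and 775322 in WT and 202735 and 226534 in Taf4a-/-, or 32.6%, with 9 of 12 genes called lower. Lum and Dcn, matrix proteoglycan genes, had -7.01 and -4.63, and Fn1, encoding fibronectin, had 0.42 (adjusted p = 0.300 from limma). The smooth muscle sum was 34186 and 63819 in WT and 22260 and 21880 in Taf4a-/-, or 45.04%, with 5 of 9 genes called lower. Actg2 and Acta2, smooth muscle actins, had -4.37 and -1.14, and the call of Acta2 was lost without either Taf4a-/- library (adjusted p = 0.0516 and 0.0599). The fibroblast and smooth muscle sums were higher in WT replicate 2 than in WT replicate 1, as were Cav2, Ptrf and Prkcdbp. Sdpr was higher in WT replicate 1. Cav1 differed by only 1.07-fold between these libraries and Cav3 had 15 and 10 reads in them, so neither is placed on a side. Of the other marker sums, the adipocyte, macrophage and mesothelial were higher in WT replicate 2. The cardiomyocyte, endothelial, skeletal muscle, visceral endoderm and pluripotency sums were higher in WT replicate 1.

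The endothelial sum overlapped between genotypes, with 13765 and 9031 in WT and 7079 and 12074 in Taf4a-/-. Of its 12 genes only Vwf was called, at -0.92 (adjusted p = 0.0395 from limma), and it lost its call with any 1 library left out, while 3 genes of the list were called lower without Taf4a-/- replicate 2. Of 8 adipocyte markers, 4 were tested and all 4 fell, with -4.55 for Fabp4 and -2.93 for Lpl, while Adipoq had at most 1.11 normalized counts in any library. Without WT replicate 2 the count was 2. The adipocyte sum was 2762 and 3453 in WT and 435 and 408 in Taf4a-/-. In the skeletal muscle list the sums overlapped (315 and 254 in WT, 282 and 288 in Taf4a-/-), with Myod1 and Ckm at 6.14 or less in each library. Further marker lists were read too, beside the same 17.3% lower and 11.3% higher over all tested genes. Macrophage markers summed to 10604 and 11948 in WT and 266 and 501 in Taf4a-/-, and visceral endoderm and liver markers to 88086 and 69493 against 1271 and 950.04, with all 10 genes of each list called lower and C1qa and Alb at 0 in Taf4a-/-. Pluripotency markers summed to 5257 and 1835 in WT and 16635 and 18964 in Taf4a-/-, with 9 of 10 called higher. The mesothelial sum was 24074 and 27918 in WT and 25106 and 21846 in Taf4a-/-, overlapping, with 3 of 8 called lower. The sum of the 6 caveolin and cavin genes, 6189 and 8228 in WT and 2670 and 3123 in Taf4a-/-, was 40.2% of the WT mean. Genes with high counts weigh most in such sums. Ptrf alone averaged 5049 in WT and 2293 in Taf4a-/-, and Acta2 averaged 27857 and 12241 in the smooth muscle sum. Fn1, not called, averaged 106913 and 139392 in the fibroblast sum, while the median log2 difference of that list was -2.67. The part of any of these cell types in the caveolin and cavin values was not tested.

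**Figure D5:**
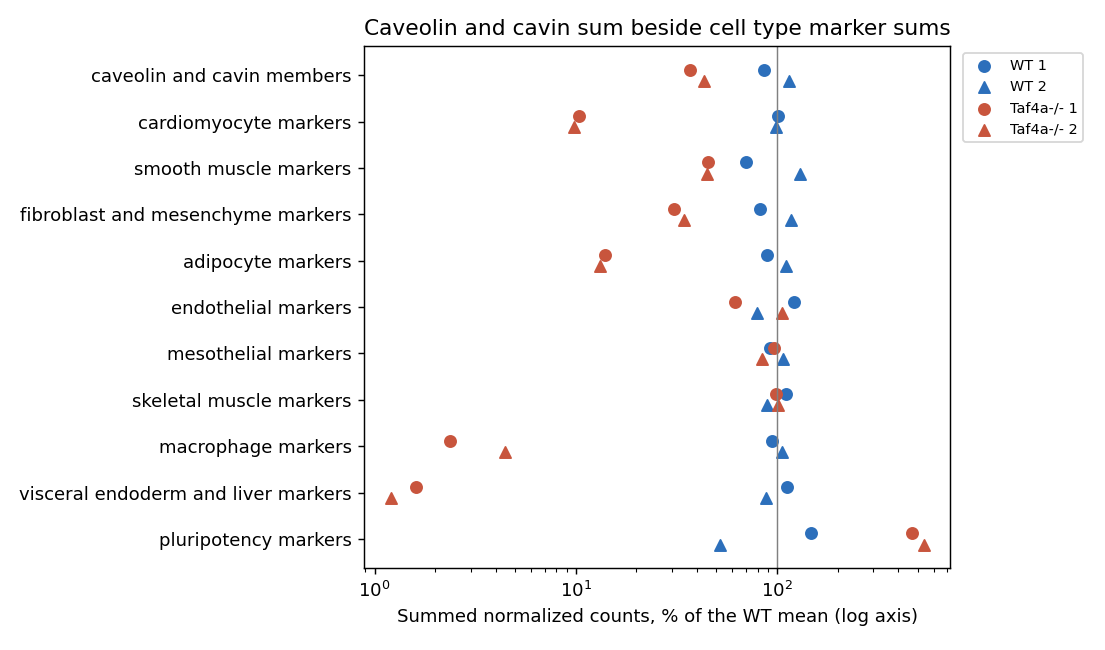
Summed normalized counts of the caveolin and cavin genes and of each cell type marker list in each library, as a percentage of the WT mean (horizontal log axis), with WT libraries in blue and Taf4a-/- libraries in red. The caveolin and cavin sum of the Taf4a-/- libraries averages 40.2%, beside 45.04% for smooth muscle, 32.6% for fibroblasts and 10.1% for cardiomyocytes. Genes with high counts, such as Ptrf, Acta2 and Fn1, weigh most in these sums. The endothelial points of the genotypes overlap.

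The genes most alike to each member over the 4 libraries were found as those with the smallest Euclidean distance between log2 values centred on their mean, among 12540 genes with a mean of at least 100. All points share the same 4 libraries, so these are descriptions. Ptrf and Ptn, encoding the secreted factor pleiotrophin, were nearly parallel at a distance of 0.0022, with Ptn at 6820 and 10107 normalized counts in WT and 3614 and 4080 in Taf4a-/-. The nearest to Cav1 was Dock8 (0.030), followed by Lrig1 and Prickle2. Cav2 lay nearest to A430110N23Rik (0.052) and Gucy1b3 (0.104), a subunit gene of the nitric oxide receptor. Prkcdbp lay nearest to Pgf (0.046) and to Mmp2 (0.052), a matrix metalloproteinase gene. Sdpr had no gene as close, with Ntrk2 (0.208), Osr1 (0.262) and Cacnb2 (0.272) as the nearest. Cav3, at few reads, was nearest to Coro1a (0.278). The log2 values were of the normalized count + 1, and Cav3 was at 0 in both Taf4a-/- libraries. Its distances therefore depend on the added 1 and do not show which genes are like it. Among the 5 fitted members, Ptrf and Prkcdbp were the most alike pair (0.241), ahead of the neighbours Cav1 and Cav2 (0.641). Sdpr and Prkcdbp were the least alike of these (1.63). The largest distance to Cav3 was 2.81, for Prkcdbp, and it rests on the same added 1.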

How the data were processed

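Polyadenylated RNA was prepared from WT and Taf4a-/- cultures with an unstranded kit and sequenced as 1 library per line. Per the submitters' processing notes, CASAVA 1.8, TopHat 1.3.3, HTSeq 0.5.3p1 and DESeq were used with mm9, and the annotation release is not given in the sources used here. The authors deposited normalized counts per gene, that is, reads divided by a size factor per library. All 4 value columns belong to the libraries. Dividing by the value of 1 read gave whole numbers for 100% of values, within 0.01 read, and no count test was run as the main test.

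Normalized counts were compared in R 4.3.3 by limma 3.58.1, fitting lmFit and eBayes with the trend option, on log2(value + 1), for 16926 genes with a mean of at least 10, with Benjamini-Hochberg adjustment over all of them and a threshold of 0.05. The test was tested on simulated data with a single fixed spread for all genes, not taken from these lines. That run therefore does not measure the rate of false calls here. With 2 lines per genotype, p-values measure the spread between these lines, and that of limma is shared across genes. A floor of 3 reads bounds folds against 0, with the WT mean taken as measured.

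The members and all gene lists were chosen with earlier results of these data known. Named genes were the members, all neck genes, Taf4a, for each other list the largest 2 called differences and the highest mean, the 3 genes nearest to each member, and genes within 250 kb of the caveolins. Not all are printed, and some are not reported here. Xist, Eif2s3y and the marker genes were named outside that rule. Hmgcs1 and Myf6 were not found in the table. Gene spans and exons came from GENCODE on NCBIM37, where all 24637 identifiers matched, and promoters from RefSeq, which matched 5 of the 6 genes. Plots used matplotlib 3.10.9 under Python 3.11.15. Alternatives changed the pseudocount, filter, scaling, threshold or variance model, added a replicate block, or left out a library.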

Additional observations from a re-analysis of the deposited data

How the results depend on the processing

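No fitted member and no called gene followed under the alternatives changed direction in any of them. The directions of Cav3, Erlin1 and Nos1 were not followed. Of genes not called and near 0, Ehd1, Cltc, Yap1 and Tes changed sign under some. The edgeR and DESeq2 tests on counts were not run, and voom on recovered reads was chosen after seeing the data. Over all genes, 2928 were lower and 1906 higher. Dropping the variance trend gave 1741 and 856, a threshold of 0.01 gave 1119 and 331, and voom 2580 and 2134. With quantile normalization they were 2448 and 2676, which made the share of higher calls 52.2% against 39.4% and put the median of all genes at 0.11. Leaving out one library gave 1222 to 3038 lower and 624 to 2476 higher, with the fewest lower calls without WT replicate 2. The neck list, with 6 lower and 0 higher, had 1 lower at a threshold of 0.01, 3 to 6 lower with one library left out, and 1 higher (Murc) under quantile scaling, all of untested cause.

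With one library left out, the log2 differences ran from -1.996 to -1.31 for Cav1, -2.50 to -1.84 for Cav2, -1.40 to -0.83 for Ptrf, -2.55 to -2.16 for Sdpr and -1.39 to -0.58 for Prkcdbp. With quantile normalization they were -1.49, -1.86, -1.10, -2.14 and -0.65, relative to the 0.11 of all genes. For the replicate block, same-numbered libraries shared only a number (correlation of deviations 0.01). Under that block 2657 genes were lower and 1536 higher, the member differences were the same (-1.66 for Cav1), the neck list had 6 lower, the calls of Erlin1, Ap2s1, Sgcd, Vwf, Actn3 and Krt19 were lost, and Itm2a was called lower. Depth limits Cav3, with 15 and 10 reads in WT, and the other members had at least 47 reads in each library.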
